A study of Drosophila melanogaster with 18 samples.

Results

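Egg chambers in which the bone morphogenetic protein (BMP) pathway was switched on in the follicle cells were compared with wild type egg chambers. The comparison was defined by the sample titles and used 6 of the 18 samples of the series, 3 arrays of BMP gain of function and 3 of wild type A. BMP gain females carried the driver CY2-GAL4 and UAS-tkv*, an activated form of the BMP receptor Thickveins, and wild type females were OreR, with neither driver nor transgene. Both groups were females of 6 to 8 days kept with yeast at 23 °C for 24 h, and egg chambers of stages 9 to 10 were dissected by hand. Each replicate pooled 100 egg chambers that had been gathered 20 at a time over 5 rounds out of 300 dissected per genotype. The p-values therefore cover the spread between pools, part of which may be technical. CY2-GAL4 is a follicle cell driver, and transgene activity is forced across much of the epithelium and not in its normal pattern. No driver-only flies were analysed here. Strain, driver and activated receptor therefore cannot be told apart in this comparison. Other groups served to set it in context. These were EGFR gain (CY2-GAL4, UAS-lambda-Top, an activated epidermal growth factor receptor) and EGFR loss (CY2-GAL4, UAS-dnEGFR, a dominant-negative receptor), run in the same round, and BMP loss (CY2-GAL4, UAS-Dad, the inhibitory Smad) with its own OreR controls, wild type B, run in another round.

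In the fly ovary the follicle epithelium surrounds the germline. Decapentaplegic, the main BMP ligand, is made in anterior follicle cells from mid-oogenesis. It binds the type I receptor Thickveins with the type II receptor Punt, and these phosphorylate the Smad protein Mad, which enters the nucleus with Medea and, through Schnurri, represses or activates target genes. Together with EGFR signalling from the dorsal side, this gradient patterns the anterior eggshell, including the operculum and the dorsal appendages. The same epithelium secretes yolk proteins, then the vitelline membrane, then the chorion.

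All 18 arrays gave values for 13966 probe sets other than Affymetrix controls, in log2 units, and these covered 10825 named genes. Array medians were 4.44 to 4.51 in the round of BMP gain and wild type A and 4.02 to 4.04 in the other round, and the number of arrays limits the precision. Replicates of BMP gain and of wild type A correlated with each other at mean Spearman coefficients of 0.9683 and 0.9685. The difference between 3' and 5' control probes, a sign of RNA quality, was 1.13 to 1.22 for actin in BMP gain and 1.03 to 1.20 in wild type A. EGFR loss replicate 3 stood apart at 2.89. It entered these results through the shared estimate of spread and the EGFR comparison, and without the 3 EGFR loss arrays 370 probe sets were called in BMP gain against wild type A instead of 334, with 310 in common.

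The gene driven by the transgene was read first. By the probe set that responded, tkv had log2 values of 8.33, 8.44 and 8.25 in the BMP gain arrays and 6.46, 6.61 and 6.53 in the wild type A arrays. The groups did not overlap, as in 20.5% of all probe sets, and tkv was 3.49-fold higher (log2 change 1.81 ± 0.18 SE, adjusted p = 6.6e-05 by limma, the test behind every adjusted p below). It averaged 6.41 in EGFR gain, 6.13 in EGFR loss, 5.76 in BMP loss and 5.73 in wild type B, so the rise was seen in the genotype that carries the transgene. A second tkv probe set, at 7.50, 7.46 and 7.70 in BMP gain and 7.42, 7.44 and 7.31 in wild type A, was not called against wild type A (0.16 ± 0.10, adjusted p = 0.62). It was called higher against the mean of EGFR gain and EGFR loss (0.79, adjusted p = 0.00023). Its means there were 7.12 in EGFR gain and 6.41 in EGFR loss. Positions of the 2 probe sets along the transcript were not used here.

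Across the array 334 of 13966 probe sets passed an adjusted p under 0.05, which is 2.39% of those tested. Of these 163 were higher (1.17%) and 171 lower (1.22%), and 104 changed by at least 2-fold (0.745%). Among genes, each read by the probe set with the highest mean over the 18 arrays, 280 of 10825 were called (2.59%), 141 higher (1.3%) and 139 lower (1.28%). The median change over all genes was 0.0037 on the log2 scale. In a fit to the 6 arrays of the comparison alone 95 probe sets were called, 73 of them shared with the 334. Leaving out wild type A replicate 2 or 3 lowered the number to 221 or 210.

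**Figure D1:**
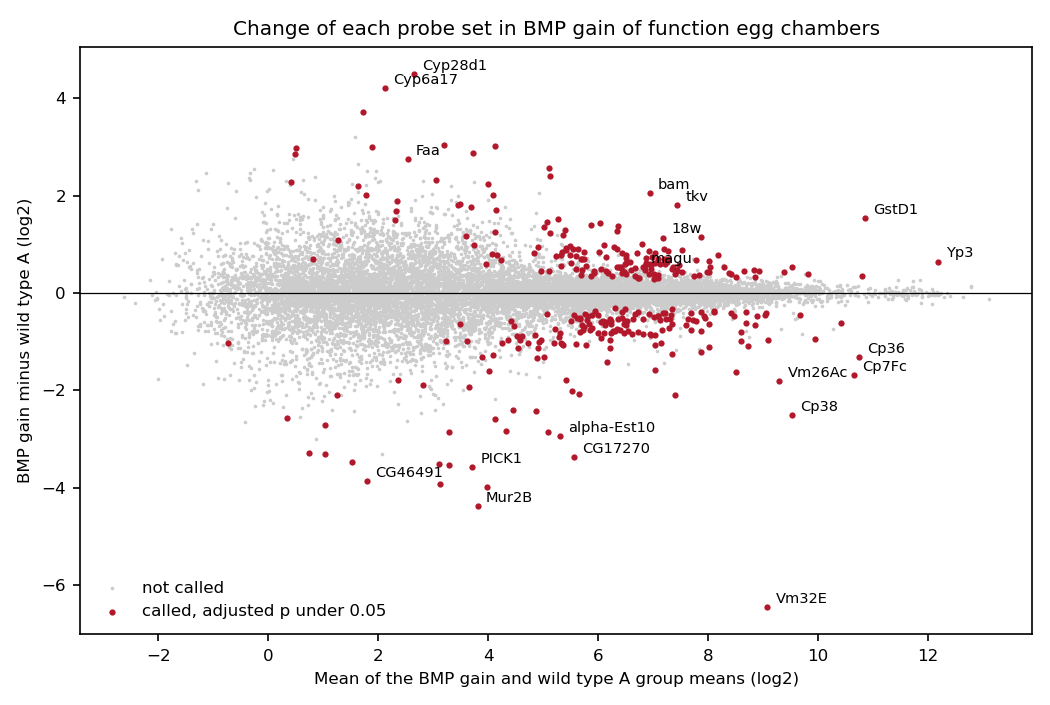
Each point is 1 probe set, with the mean of the BMP gain and wild type A group means (log2) on the horizontal axis and BMP gain minus wild type A (log2) on the vertical axis; red points were called. Vm32E lies alone at -6.45, and 104 of the 334 called probe sets changed by at least 2-fold.

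The eggshell genes held the fall with the lowest p. Vm32E, a vitelline membrane protein gene, had log2 values of 5.78, 5.88 and 5.90 in BMP gain and 12.27, 12.32 and 12.32 in wild type A. It was 87.7-fold lower (log2 change -6.45 ± 0.08, adjusted p = 5.3e-15). Its mean was 11.47 in EGFR gain, 12.35 in EGFR loss, 11.85 in BMP loss and 11.71 in wild type B. BMP gain was thus by far the lowest of the 6 groups. EGFR gain also lay below the wild type A mean of 12.31, by much less. Vm26Ac, of the same family, had 8.48, 8.38 and 8.33 in BMP gain against 10.20, 10.18 and 10.23 in wild type A, and was 3.505-fold lower (-1.81 ± 0.09, adjusted p = 1.2e-07). Its means were 9.83 in EGFR gain and 10.32 in EGFR loss. The falls of Vm32E and Vm26Ac in BMP gain were also called against the EGFR genotypes that carry the same driver, at -6.06 and -1.68 (adjusted p = 1.8e-15 and 5.1e-08). They were called in the difference from the BMP loss response too, at -6.59 and -2.08 (3.9e-13 and 2.6e-06). Whole egg chambers were measured, so fewer cells making a transcript and less of it per cell cannot be told apart.

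Other vitelline membrane genes were not called in the same arrays. Vm34Ca had 12.98, 13.04 and 13.12 in BMP gain and 13.27, 13.11 and 13.14 in wild type A, overlapping groups with a difference of -0.12 ± 0.07 (adjusted p = 0.56). Vm26Aa, the direct neighbour of Vm26Ac among protein-coding genes on chromosome 2L, had 12.62, 12.59 and 12.57 against 12.66, 12.71 and 12.68 (-0.09 ± 0.06, 0.68). Vm34Ca and Vm26Aa lie near the table's highest value, 13.27, and whether changes are compressed there was not tested. psd, a palisade gene of the vitelline membrane with 1 gene between it and Vm26Ac, had 10.48, 10.31 and 10.33 against 10.65, 10.62 and 10.59 (-0.25 ± 0.10, 0.31).

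Of 14 vitelline membrane and early eggshell genes measured, 2 fell, none rose and 12 were not called, against 1.28% of all genes called lower. The median difference of the 14 was -0.23, against 0.0037 over all genes. Among those not called, yellow-g, needed for vitelline membrane crosslinking, averaged 5.83 ± 0.34 in BMP gain and 7.28 ± 0.63 in wild type A (SD, n = 3 each; -1.45, adjusted p = 0.061), and yellow-g2 6.48 ± 0.60 and 7.67 ± 0.66 (-1.20, 0.24). Fcp3C, a follicle cell protein gene, averaged 9.91 ± 0.21 and 10.65 ± 0.19 (-0.74, 0.10). Moderation with an intensity trend called 6 of the 14 lower, array weights 4, and a filter on dim probe sets 6. Over all probe sets these settings also called more lower, at 230, 292 and 260 against 171 in the main fit. The filter tested 7355 probe sets instead of 13966. In BMP loss against wild type B, yellow-g and yellow-g2 were called lower, at -1.66 (adjusted p = 0.031) and -2.10 (0.020).

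Some chorion genes fell as well, with a wider spread between arrays than Vm32E and Vm26Ac. Cp38 had 7.74, 9.00 and 8.08 in BMP gain and 10.27, 11.14 and 10.91 in wild type A, and was 5.65-fold lower (-2.50 ± 0.38, adjusted p = 0.0022). Cp7Fc had 9.20, 10.51 and 9.76 against 11.00, 11.77 and 11.75 (-1.68 ± 0.39, 0.037). Cp36, an early chorion protein, had 9.70, 10.69 and 9.90 against 10.98, 11.63 and 11.61 (-1.31 ± 0.32, 0.047). In each gene the highest BMP gain array, replicate 2, lay below the lowest wild type A array, replicate 1. These 3 genes lie next to each other on the X chromosome, in the order Cp7Fc, Cp36 and Cp38, with no other protein-coding gene between them.

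Of 7 chorion genes 3 fell, against 1.28% of all genes, 4 were not called and none had a difference above 0, with a median of -1.15. The 4 not called were Cp15 (-1.15, adjusted p = 0.15), Cp19 (-0.90, 0.23), Cp16 (-0.29, 0.93) and Cp18 (-0.21, 0.77). The calls of Cp7Fc and Cp36 ended without BMP gain replicate 1 (adjusted p = 0.15 and 0.18) and in 3 of the other 5 omissions, leaving Cp38 alone of the 7. Against the EGFR genotypes, where 1.4% of all genes were called, limma called none of the 7, with a median of -0.43. At an unadjusted p under 0.05 stood 3 of the 7, and 1876 of all 13966 probe sets. In the difference from BMP loss, where 0.434% of all genes were called, limma called none either, with a median of -0.74. There 2 of the 7 had an unadjusted p under 0.05, as had 1113 of all 13966 probe sets. Cp38 stood at -0.76 in EGFR gain and -1.61 in EGFR loss against wild type A, and at -1.31 in BMP loss against wild type B, so its mean was below that of wild type in every CY2-GAL4 genotype.

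**Figure D2:**
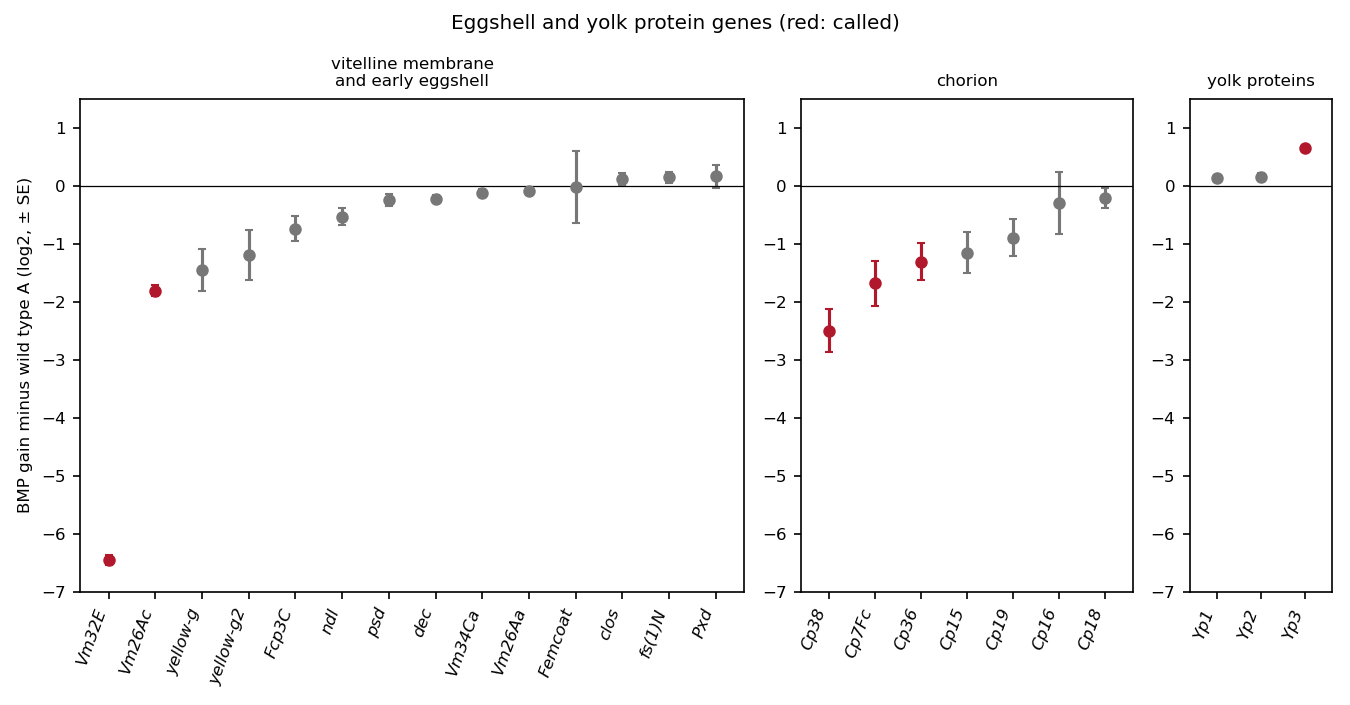
BMP gain minus wild type A (log2) with its SE for the 14 vitelline membrane and early eggshell genes, 7 chorion genes and 3 yolk protein genes; red marks called genes. Vm32E and Vm26Ac stand apart from Vm26Aa and Vm34Ca, the chorion genes lie between -2.50 and -0.21, and Yp3 lies at 0.65.

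Several other genes fell by more than 4-fold. Mur2B, a mucin-related gene and the direct neighbour of the BMP and EGFR target br on the X chromosome, had 1.27, 1.89 and 1.72 in BMP gain and 5.59, 6.16 and 6.23 in wild type A (20.6-fold, -4.37 ± 0.64, adjusted p = 0.0019). CG17270 had 3.80, 3.71 and 4.10 against 7.24, 7.14 and 7.33 (10.3-fold, -3.37 ± 0.15, 3.6e-08). alpha-Est10, a member of the alpha-esterase cluster, had 4.10, 4.60 and 2.80 against 6.73, 6.79 and 6.79 (7.66-fold, -2.94 ± 0.33, 0.00026). In all 3 the groups were far apart, although the low values of Mur2B lie near the bottom of the scale, which makes its fold uncertain.

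These 3 falls did not behave alike in the other genotypes. With the EGFR pair as control all were called, at -3.34 (adjusted p = 0.0087), -2.55 (7.9e-08) and -2.54 (0.00041), though that of Mur2B ended without BMP gain replicate 1 (0.055). In BMP loss against wild type B, CG17270 was lower too (-2.47, 7.8e-07), as was alpha-Est10 (-2.52, 0.0013), while Mur2B at -1.37 was not called (0.38). None of the 3 was called different between the BMP responses.

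Further large falls were those of CG11381, CG11382, CG13114 and CG4009. CG11381 had 6.00, 6.72 and 6.35 in BMP gain and 7.87, 8.83 and 8.66 in wild type A (-2.10 ± 0.28, adjusted p = 0.0011). CG11382, with 1 gene between it and CG11381, fell by 2.43 ± 0.47 (0.013), a call lost in 2 of 6 omissions of single arrays (highest 0.058, without wild type A replicate 3). CG13114 fell by 2.08 ± 0.38 (0.0076) and CG4009, a predicted peroxidase, by 2.85 ± 0.49 (0.0058). In the EGFR comparison CG11381 (-1.65, 0.0040) and CG13114 (-1.80, 0.014) were called and CG11382 (-1.08, 0.27) and CG4009 (-1.21, 0.23) were not. The CG13114 call in that comparison ended in 2 of 9 omissions (highest 0.095, without BMP gain replicate 2).

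The next falls were called against wild type A, against the EGFR pair and in the difference from BMP loss. kar (karmoisin, an eye colour gene of the transporter family) had 5.29, 5.61 and 5.46 in BMP gain and 6.72, 7.0 and 6.88 in wild type A (2.66-fold, -1.41 ± 0.16, adjusted p = 0.00027). CG9747, a predicted fatty acid desaturase, had 8.14, 8.26 and 8.18 against 9.10, 9.37 and 9.36 (-1.09 ± 0.15, 0.0012). Hexo2, a hexosaminidase, had 6.54, 6.51 and 6.46 against 7.57, 7.53 and 7.60 (-1.06 ± 0.12, 0.00027). Their means in EGFR gain and EGFR loss, at 6.78 and 6.80 for kar, 9.06 and 9.35 for CG9747 and 7.53 and 7.83 for Hexo2, lay near wild type A.

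veil, a predicted nucleotidase, fell by 1.26 ± 0.15 (adjusted p = 0.00031) and CG31886 by 1.05 ± 0.11 (0.00014) with the same pattern. Esp, a predicted sulphate transporter, fell by 1.07 ± 0.21 (0.014) and lost its call in 3 of 6 omissions (highest 0.078, without wild type A replicate 3). CG46491 fell by 3.86 ± 0.28 (4.4e-06), with 0.27, 0.15 and -0.83 in BMP gain against 3.75, 3.64 and 3.78 in wild type A, all below the table's median of 4.33. Its second probe set gave 0.75 and was not called (0.79).

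**Figure D3:**
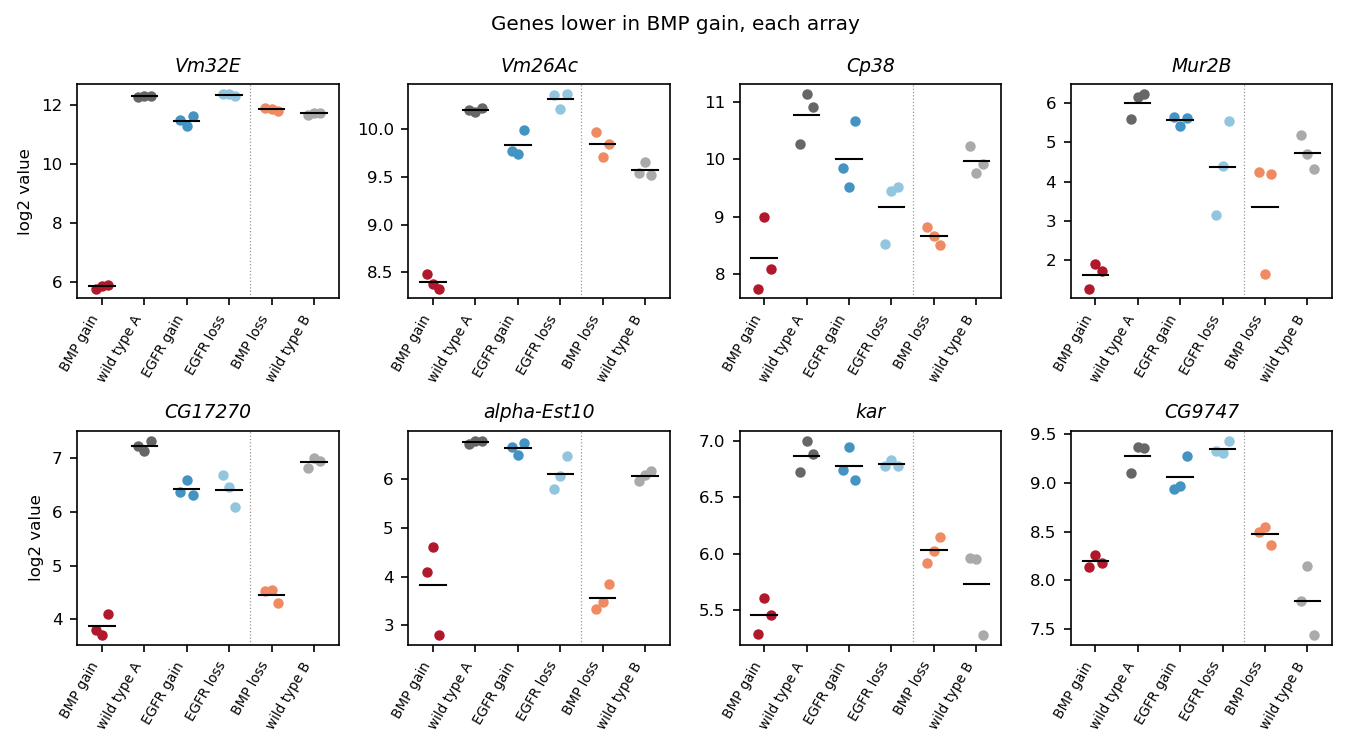
Log2 value of each array (points) and group mean (bar) for 8 genes lower in BMP gain, with BMP gain at the left, wild type A next to it, the other groups after them, and a dotted line between the rounds. Vm32E, Vm26Ac, kar and CG9747 are low in BMP gain against wild type A and both EGFR groups, while CG17270 and alpha-Est10 are low in BMP loss too and Cp38 varies among all groups.

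Among listed genes of the BMP pathway itself, magu and myo were called besides tkv. Of 14 ligands and extracellular modulators 2 rose and none fell, against 1.3% of all genes called higher, with a median of 0.23. magu, a secreted modulator of BMP spread, had 7.35, 7.24 and 7.31 in BMP gain and 6.41, 6.49 and 5.98 in wild type A, and was 2.01-fold higher (1.01 ± 0.17, adjusted p = 0.0053). It was called against the EGFR pair (1.22, 0.00076) but not in the difference from BMP loss (0.56, 0.56). myo, the TGF-beta family ligand Myoglianin, rose by 0.59 ± 0.12 (0.020), a call lost in 4 of 6 omissions (highest 0.083, without BMP gain replicate 1). dpp itself was dim, with 1.40, 2.46 and 2.83 in BMP gain and 2.93, 2.74 and 1.45 in wild type A, and the groups overlapped.

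None of 12 receptors, Smads and nuclear regulators was called by limma against wild type A at its main probe set, with a median of 0.09. At an unadjusted p under 0.05 stood 1 of the 12, and 1304 of all 10825 genes. The receptors put and sax stood at -0.28 and 0.09 (adjusted p = 0.47 and 0.91), the Smads Mad and Med at 0.10 and -0.15 (0.79 and 0.69) and the cofactor shn at 0.09 (0.86). Dad, the inhibitory Smad whose gene is induced by BMP signalling, had 4.14, 4.23 and 4.19 in BMP gain and 2.75, 2.75 and 2.78 in wild type A. These groups lay apart by 1.43 with very little spread, but the shared SE of 0.66, which also holds the EGFR loss arrays with an SD of 2.06, left it uncalled (0.44), whereas the fit to the 6 arrays alone called it (0.0079). Dad was not called in the round 1 arrays (0.60), with the intensity trend (0.34) or with replicate number as a block (0.51). Nor was it called in any of the 6 omissions of single arrays. Both group means lie below the table's median of 4.33. Dad averaged 4.09 in EGFR gain, level with BMP gain, and 7.60 in BMP loss, where it is the transgene.

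Among 22 genes known to respond to BMP in other fly tissues 2 rose, bam and magu, against 1.3% of all genes, none fell, and the median was 0.11. bam, the germline differentiation factor that BMP signalling silences in germline stem cells, had 7.99, 8.00 and 7.90 in BMP gain and 5.93, 5.74 and 6.06 in wild type A. It was 4.15-fold higher (2.05 ± 0.13, adjusted p = 1.7e-06), and was called against the EGFR pair (2.58, 4.2e-08) and in the difference from BMP loss (2.12, 0.00017). The wing and embryo targets bi, salm, salr, vg, zen and ush were not called, at -0.43, -0.35, 0.26, 1.16, 0.23 and -0.09. Of these bi, salm and vg averaged below the table's median of 4.33 in both groups. br, a transcription factor gene patterned by both pathways at these stages, was dim by its 4 probe sets and called by none, with -0.59 ± 0.48 for the main one (0.77).

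Other rises shared the pattern of bam in all 3 comparisons. ana2, a centriole duplication gene, had 8.16, 8.14 and 8.09 in BMP gain and 7.41, 7.51 and 7.43 in wild type A (1.60-fold, 0.68 ± 0.08, adjusted p = 0.00029), and 7.38 and 7.41 on average in EGFR gain and EGFR loss. Faa, which acts in tyrosine breakdown, had 4.10, 3.96 and 3.67 against 0.93, 0.97 and 1.59 (2.75 ± 0.23, 1.7e-05), while its other probe set, near the bottom of the scale, gave -0.04. CAP, an adaptor at muscle and adhesion sites, rose by 0.47 ± 0.11 (0.041), a call lost without BMP gain replicate 3 (0.16) and in 4 other omissions.

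18w, a Toll-family receptor gene, rose in BMP gain and stood at the same level in EGFR gain. It had 7.53, 7.72 and 8.02 in BMP gain and 6.70, 6.53 and 6.63 in wild type A (2.20-fold, 1.14 ± 0.16, adjusted p = 0.0012), 7.77 ± 0.14 in EGFR gain and 5.82 ± 0.33 in EGFR loss. The call against the EGFR pair (0.97, 0.0024) therefore rests on EGFR loss, since the difference from EGFR gain alone was -0.0073. In BMP loss it stood at -0.58 ± 0.16 against wild type B (0.081), and the responses to BMP gain and BMP loss differed by 1.72 ± 0.22 (0.0025).

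**Figure D4:**
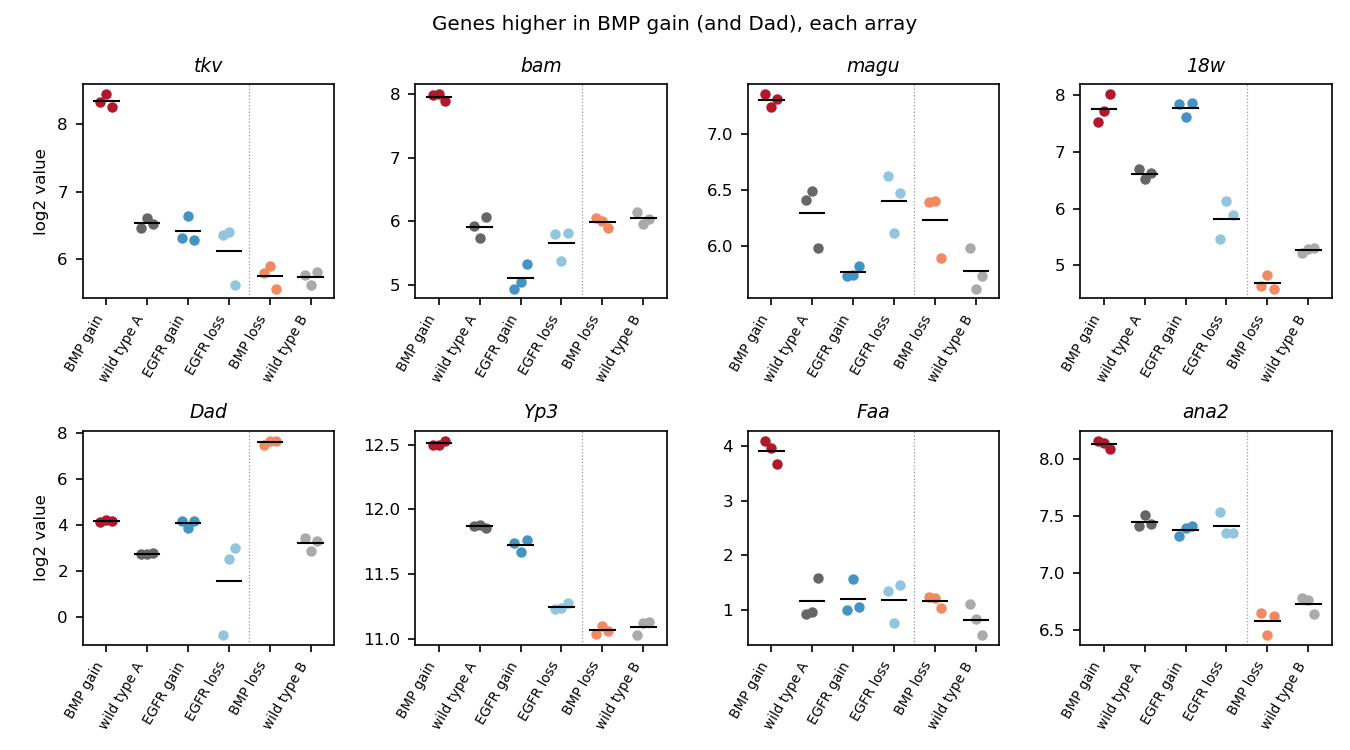
Log2 value of each array (points) and group mean (bar) for 7 genes higher in BMP gain and for Dad, with BMP gain at the left, wild type A next to it and a dotted line between the rounds. tkv, bam, magu, Faa and ana2 are highest in BMP gain, 18w is as high in EGFR gain, and Dad is highest in BMP loss, where it is the transgene.

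Of the 3 yolk protein genes, which follicle cells and the fat body express, 1 was called higher, against 1.3% of all genes. Yp3 had 12.50, 12.50 and 12.53 in BMP gain and 11.87, 11.88 and 11.86 in wild type A (1.56-fold, 0.65 ± 0.06, adjusted p = 3.2e-05). Yp1 and Yp2 were at 0.13 and 0.15 with groups that did not overlap, and were not called (0.39 each). Against the EGFR pair all 3 were called, Yp3 at 1.02 (7.5e-08), Yp1 at 0.31 (0.0074) and Yp2 at 0.30 (0.019). Set against EGFR gain alone, Yp1 and Yp2 differed by -0.04 (0.91) and 0.01 (0.98), and against EGFR loss alone by 0.65 (3.1e-05) and 0.59 (0.00026), so their calls rest on EGFR loss, while Yp3 was called against each (0.79 and 1.26). Yp2 was not called without any 1 of the BMP gain arrays (highest adjusted p 0.10, without replicate 3), and 1 of the 3 genes was called in the arrays of this comparison alone and in the 12 round 1 arrays alone.

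Replication genes, which act in endocycles and in chorion gene amplification, gave few calls. PCNA, the sliding clamp, had 9.85, 9.81 and 9.76 in BMP gain and 9.18, 9.36 and 9.26 in wild type A (0.54 ± 0.08, adjusted p = 0.0030). Mcm6, of the replicative helicase, had 6.55, 6.63 and 6.64 against 6.12, 6.07 and 6.06 (0.53 ± 0.10, 0.012), a call lost in 3 of 6 omissions (highest 0.054, without wild type A replicate 3). Of 23 replication and amplification genes these 2 rose, against 1.3% of all genes, and none fell, and the median was 0.10. fzr, which drives the exit to endocycles, rose by 0.63 ± 0.10 (0.0042), as it did in BMP loss (0.57, 0.010), and 12 other cell cycle regulators were not called.

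Against the EGFR pair 7 of the 23 replication genes were higher and none lower, where 0.665% of all genes were called higher, with a median of 0.28. They were PCNA (0.44), Orc1 (0.52), Orc4 (0.44) and Orc5 (0.34) of the origin recognition complex, the licensing factor dup (0.44), Cdc45 (0.40) and RnrL (0.41), which makes deoxyribonucleotides. The number fell to 1, 0 and 2 without BMP gain replicates 1, 2 and 3, and to 5 and 4 without EGFR gain replicates 1 and 2. It was 0 in the arrays of this comparison alone and 0 in the 12 round 1 arrays alone, 10 with array weights, and 11 with the intensity trend or the filter on dim probe sets. Over all probe sets the first 2 settings called 16 and 33 higher, against 85 in the main fit. Array weights called 145, the trend 164 and the filter 201 of 7455 tested. The number of replication genes was 4 against EGFR gain alone and 3 against EGFR loss alone. In the difference from the BMP loss response limma called none. There 5 of the 23 had an unadjusted p under 0.05, as had 1113 of all 13966 probe sets.

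Genes of the EGFR pathway, which shares the task of patterning the eggshell, were mostly not called. Of 13 ligands and cascade members 2 fell, against 1.28% of all genes, and none rose, with a median of -0.06. spi, an EGFR ligand, had 5.83, 5.93 and 5.80 in BMP gain and 6.53, 6.46 and 6.37 in wild type A (-0.60 ± 0.14, adjusted p = 0.034), and lost its call without any single 1 of the 6 arrays (highest 0.12, without wild type A replicate 1). Cbl, which targets the receptor for degradation, fell by 0.40 ± 0.09 (0.033), lost in 5 of 6 omissions (highest 0.14, without BMP gain replicate 1). spi was lower in BMP loss too (-0.82, 0.0058). Egfr and the oocyte ligand grk stood at -0.07 and -0.06.

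Of 9 EGFR response genes 18w alone rose, against 1.3% of all genes. kek1 and aos, which EGFR signalling induces, were at 0.21 ± 0.49 and 0.28 ± 1.16 (adjusted p = 0.95 and 0.98), while against wild type A they stood at 2.08 and 2.32 in EGFR gain. Both were dim. kek1 averaged 4.08 in BMP gain and 3.87 in wild type A, below the table's median of 4.33. aos averaged 0.27 and -0.02, near the bottom of the scale, so its missing call says little about a response. mirr, a dorsal anterior regulator, had 4.33, 4.03 and 4.43 in BMP gain and 4.52, 4.59 and 4.18 in wild type A (-0.17, 0.93). pip, the ventral sulfotransferase that EGFR represses, had 4.73, 4.92 and 5.39 against 3.94, 3.82 and 3.14, groups that lay apart by 1.38 ± 0.71 without a call (0.52). It was called in the fit to the round 1 arrays alone (0.027). It was not called in the 6 arrays alone (0.15), with the intensity trend (0.43), with replicate number as a block (0.51) or in any of the 6 omissions of single arrays. Of 13 ventral cue and Toll pathway genes spz, the Toll ligand, rose by 0.43 ± 0.09 (0.021), lost in 4 of 6 omissions (highest 0.10, without wild type A replicate 2), and the rest were not called. spz was higher in BMP loss too (0.60 against wild type B, 0.0029).

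None of 14 follicle cell fate regulators was called by limma against wild type A, with a median of -0.06. At an unadjusted p under 0.05 stood 3 of the 14, and 1304 of all 10825 genes. bun, which both pathways regulate, stood at 6.78, 6.75 and 6.59 in BMP gain and 7.16, 7.24 and 7.20 in wild type A (-0.49 ± 0.12, adjusted p = 0.060), level with both EGFR genotypes (6.61 and 6.66). bun was lower in BMP loss too (-0.74 against wild type B, 0.0066). emc, a helix-loop-helix factor, averaged 8.59 ± 0.14 against 8.24 ± 0.10 in wild type A (SD, n = 3 each) and was called against the EGFR pair (0.50, 0.0081). cbt, a zinc finger factor, averaged 5.70 ± 0.04 against 6.28 ± 0.25 in wild type A, was lower than the EGFR pair (-0.75, 0.038), and was the member called in the difference from BMP loss (-1.72, 0.0073).

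Several genes called against wild type A were not called against the EGFR pair. Cyp28d1, a detoxification enzyme gene, had 4.56, 4.94 and 5.21 in BMP gain and 0.08, 0.75 and 0.37 in wild type A (4.50 ± 0.33, adjusted p = 4.4e-06), and averaged 5.96 in EGFR gain and 6.29 in EGFR loss. Cyp6a17 had 4.16, 4.06 and 4.47 against 0.40, -0.63 and 0.29 (4.21 ± 0.28, 2.4e-06), and averaged 4.68 and 4.0 in EGFR gain and EGFR loss. PICK1, a kinase-binding protein, had 1.82, 2.03 and 1.93 against 5.72, 5.69 and 5.07 (-3.57 ± 0.38, 0.00014), and averaged 1.67 and 2.32. None of the 3 was called against the EGFR pair (adjusted p = 0.057, 0.90 and 0.96).

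GstD1, a glutathione S-transferase, was another such gene, with 11.64, 11.60 and 11.63 in BMP gain and 9.93, 10.08 and 10.26 in wild type A (2.89-fold, 1.53 ± 0.08, adjusted p = 2.1e-07), 11.66 and 11.67 on average in EGFR gain and EGFR loss, and a difference from that pair of -0.04 (0.87). CG12560 (2.39), GstD9 (2.24), CG17544 (1.52), the secreted phospholipase gene GXIVsPLA2 (1.43), the integrin gene mys (0.71), numb (-0.80), CG8891 (-1.03), GstE10 (-2.85) and CG11275 (-3.53) were called against wild type A and not against the EGFR pair. CG7742, the direct neighbour of Cyp28d1 on chromosome 2L and separated from tkv by 2 genes, rose by 3.02 ± 0.24 (8.7e-06) in BMP gain and stood 3.57 and 3.89 above wild type A in EGFR gain and EGFR loss.

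Other large changes carried more doubt. CG44153, jtb and Cyp9b2 fell by 3.99, 3.50 and 2.83. Of these Cyp9b2 lost its call in 5 of 6 omissions (highest adjusted p 0.20, without BMP gain replicate 2) and had a second probe set at 1.46 (0.19), and 2 further probe sets of CG44153 stood at 0.66 and 0.72, uncalled. mthl8, of the methuselah receptor family, rose by 3.05 (0.016) and Pepck1, a gluconeogenic enzyme, by 2.87 (0.032), and these lost their calls in 3 and 4 of 6 omissions (highest 0.087 and 0.15, without wild type A replicate 3). GstD8 rose by 1.80 (0.023), Ugt35A1 by 1.70 (0.018) and CG5888 by 1.76 (0.0093). GstD8 and Ugt35A1 each lost the call in 4 of 6 omissions, up to 0.098 for GstD8 (wild type A replicate 3 left out) and 0.082 for Ugt35A1 (wild type A replicate 1 left out). None of these 8 genes was called against the EGFR pair.

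Against wild type A, where 1.3% of all genes were called higher and 1.28% lower, 5 of 83 cytochrome P450 genes were higher and 3 lower, with a median of -0.03, and 4 of 34 glutathione S-transferase genes were higher and 3 lower, with a median of 0.20. The number of higher P450 genes was 3 without wild type A replicate 1 or any BMP gain array, and that of lower ones 1 without wild type A replicate 1 or BMP gain replicate 1. In the comparison with the EGFR pair, where 0.739% of all genes were lower, 1 P450 gene was higher and 1 lower, and 1 glutathione S-transferase gene was lower and none higher. Cyp4p2 was the P450 called higher in both, at 6.38, 6.56 and 6.23 in BMP gain and 4.07, 2.74 and 4.65 in wild type A (2.57 ± 0.57, adjusted p = 0.028) and 2.38 above the EGFR pair (0.032), but it lost the first call in 5 of 6 omissions (highest 0.13, without wild type A replicate 2) and the second in 6 of 9 (highest 0.15, without BMP gain replicate 2). Of 12 esterase genes 2 rose and 2 fell, against the same 1.3% and 1.28%. alpha-Est7 rose by 0.98 ± 0.17 (0.0059), and alpha-Est5 fell by 0.77 ± 0.16 (0.021), a call lost in 5 of 6 omissions (highest 0.087, without BMP gain replicate 1).

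BMP loss offered a comparison with arrays and controls of its own, and the opposite manipulation of the pathway with the same driver. There 320 of 13966 probe sets were called against wild type B (2.29%). Of the 334 probe sets called in BMP gain 282 had the same sign in BMP loss (84.4%), where 56.1% of all probe sets did, and 52 had the opposite sign. Called in both were 113 with the same sign, which is 33.8% of the BMP gain calls and 35.3% of the BMP loss calls, and 4 with opposite signs. CG12560 rose by 3.41 in BMP loss, Cyp6a17 by 4.84, GstD1 by 2.30, mys by 0.86 and GXIVsPLA2 by 1.47, and PICK1, numb and CG8891 fell by 3.35, 0.63 and 1.13. Driver, strain background and pathway cannot be told apart in this shared set.

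The difference between both responses, BMP gain over wild type A minus BMP loss over wild type B, was called for 60 of 13966 probe sets (0.43%), 30 in each direction (0.215% each). Of the 334 probe sets called in BMP gain 42 were among them. In 26 of these the 2 responses had opposite signs and in 16 the same sign. Against the EGFR pair, which shares the driver and the round, 187 probe sets were called (1.34%), 85 higher (0.609%) and 102 lower (0.73%), and 80 of them were also called against wild type A, comparisons that share the BMP gain arrays. The number was 97, 76 and 99 without BMP gain replicates 1, 2 and 3, and 178 against EGFR gain alone and 279 against EGFR loss alone.

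In all 3 comparisons, which share the BMP gain arrays, 26 probe sets were called, 9 higher and 17 lower. They named 17 genes by their main probe set. The 6 higher were bam, 18w, Yp3, Faa, ana2 and CAP. The 11 lower were Vm32E, Vm26Ac, CG46491, veil, kar, Esp, CG4593, Ir7c, Hexo2, CG9747 and CG31886. tkv belonged with the higher ones through its responding probe set. Ir7c, an ionotropic receptor gene, had 4.37, 4.49 and 4.40 in BMP gain and 5.13, 5.34 and 5.39 in wild type A (-0.87 ± 0.13, adjusted p = 0.0018), but averaged 4.42 in EGFR gain, so its difference from EGFR gain alone was 0.0026. CG4593 fell by 0.66 ± 0.12 (0.0069). Membership was fragile for some. In the difference from BMP loss the calls of Esp and CG4593 ended in 10 and 12 of 12 omissions (up to 0.15 for Esp, wild type A replicate 3 left out, and 0.14 for CG4593, BMP loss replicate 3 left out). Against the EGFR pair those of Esp and Ir7c ended in 4 and 2 of 9 omissions (highest 0.14 and 0.055, without BMP gain replicate 1), and that of CAP in 7 (highest 0.21, without BMP gain replicate 3).

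**Figure D5:**
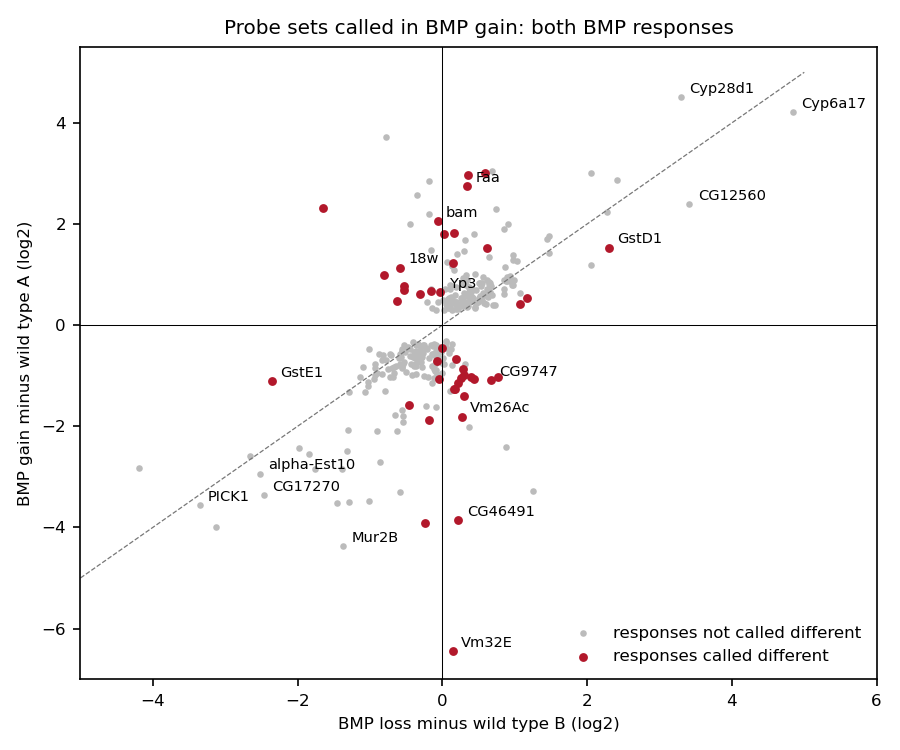
The 334 probe sets called in BMP gain, with BMP loss minus wild type B (log2) on the horizontal axis and BMP gain minus wild type A (log2) on the vertical axis; red points have responses that were called different, and the dashed line marks equal responses. Most points lie in the quadrants of equal sign, with Cyp6a17, Cyp28d1, CG12560 and PICK1 near the line, while Vm32E, CG46491, Vm26Ac, Faa and bam lie near 0 on the horizontal axis.

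Other gene groups gave few calls, where 1.3% of all genes were called higher and 1.28% lower. Of 14 extracellular matrix genes LanA, the laminin alpha chain, rose by 0.69 ± 0.13 (adjusted p = 0.011, lost in 2 of 6 omissions, with 0.066 without wild type A replicate 3), Mur2B fell and 12 were not called, with a median of 0.37. LanA differed from BMP loss by 1.21 (0.0073) but not from the EGFR pair (-0.05, 0.90). Of 10 innate immune effectors PGRP-SC2, a peptidoglycan amidase, rose by 1.83 ± 0.22 (0.00035), with 4.40, 4.85 and 3.95 in BMP gain and 2.80, 2.57 and 2.35 in wild type A, and averaged 4.81 in EGFR loss. In 19 germ plasm and piRNA genes bam rose, piwi fell by 0.64 ± 0.08 (0.00049) and 17 were not called. piwi was not called against the EGFR pair (-0.13, 0.43). Among 39 proteasome genes Rpt5 alone was called, lower by 0.46 ± 0.07 (0.0030).

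In 10 lists limma called no gene against wild type A. At an unadjusted p under 0.05 stood 23 of their 235 members, and 1304 of all 10825 genes. They were 37 cytosolic ribosomal protein genes, 15 heat shock and chaperone genes, 102 cuticle and chitin genes, 19 ecdysone genes, 14 oocyte axis genes, 13 polarity genes, 12 border cell and JAK/STAT genes, and 10 Hedgehog, 9 JNK and 4 Wnt pathway genes. The lists that follow stand beside 1.3% of all genes called higher and 1.28% lower. Of 15 Notch pathway genes numb alone was called, and of 13 adhesion genes mys alone. Of 70 oxidative phosphorylation genes Sdhaf3 (-0.86 ± 0.11, adjusted p = 0.00061) and ATPsynF (-0.66 ± 0.10, 0.0018) fell, and of 64 mitochondrial ribosomal protein genes mRpL47 rose (0.46 ± 0.10, 0.020, lost in 5 of 6 omissions, with 0.095 without wild type A replicate 3).

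The tissue was checked against marker genes. All 8 follicle cell and all 7 germline markers lay above the table's median of 4.33 in wild type A, and their summed levels (as powers of 2) were 38890 to 40200 in BMP gain and 42080 to 43810 in wild type A for follicle cells, and 3189 to 3442 and 3286 to 3776 for the germline. The lower follicle sum holds Vm32E itself, 1 of the 8. None of 7 germline, 13 muscle, 6 fat body, 11 gut, 7 nervous system, 4 oviduct and spermatheca or 2 tracheal markers was called by limma. At an unadjusted p under 0.05 stood 4 of these 50, and 1304 of all 10825 genes. Outside the germline most of these markers were dim in wild type A. Below the table's median lay 9 muscle, 5 fat body, 10 gut and 7 nervous system markers. So did 3 oviduct and spermatheca and 2 tracheal ones. Of 9 hemocyte markers srp alone was called, against 1.28% of all genes called lower. It fell by 1.32 ± 0.30 (adjusted p = 0.032, lost in 5 of 6 omissions, with 0.14 without BMP gain replicate 1). The summed level of the hemocyte list was 106 to 128 in BMP gain and 134 to 163 in wild type A. Muscle markers summed to 884 to 1063 in BMP gain and 996 to 1033 in wild type A. Gut markers summed to 108 to 129 in BMP gain and 91.0 to 103 in wild type A, and nervous system markers to 25.2 to 31.4 and 30.7 to 42.9. Their part in the differences above was not tested.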

How the data were processed

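Each of the 18 RNA samples has 1 Affymetrix Drosophila genome array of the first generation. The authors' deposited table holds log2 values of 14010 probe sets. Per the submitters' processing notes affy was used. Its version, background correction and summary method are not given in the sources used here. Base 2 was inferred, since the highest value, 13.27, is 9860 as a power of 2. Array medians agree within a round and differ between rounds, so groups were set against controls of their own round. No normalization was added, and 7.11% of values lie below 0, where folds are uncertain. No column was left unmapped, no 2 replicates held identical values, and no Affymetrix control was called (lowest adjusted p 0.47).

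Gene names came from the platform annotation and were brought up to date with a RefSeq gene table of Release 6 plus ISO1 MT, used for names and neighbours alone. Of the probe sets that are not controls 12442 had 1 gene, 327 several and 1197 none. Of the 12442, 12393 matched by gene number and 42 by symbol, and 7 kept an older name. A gene with several probe sets (1216 of 10825) was read by its probe set of highest overall mean, except tkv, read by both.

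A limma model (version 3.58.1, R 4.3.3) with 6 group means was fitted to 13966 probe sets over 18 arrays (12 residual degrees of freedom, prior 1.31). Calls needed an adjusted p under 0.05, by Benjamini-Hochberg over all probe sets. Simulations with the same design recovered 58.2%, 89.6% and 98.5% of planted changes of 1.5-, 2- and 4-fold in BMP gain against wild type A. There were 7 false calls among 171. Only brighter probe sets, with a wild type A mean no lower than the median of those means, received a planted change. Recovery in dim probe sets was not tested, so these rates cannot be taken to hold there. The named genes were tkv, a fixed set of patterning and eggshell genes, the 15 largest rises and falls at or above the table's median in the higher group, the 5 lowest adjusted p in each direction, and up to 4 called members of each gene list. Of the genes called in all 3 comparisons 11 fell outside this rule and were named after their values were seen. The members and lists were chosen with earlier results of these data known. No sequence is printed, since none was supplied with the files used here. Over all probe sets replicate numbers did not pair the BMP gain and wild type A arrays, with correlations of same-numbered deviations of -0.016, 0.025 and -0.0057. Pairing in single genes or in the other groups was not tested.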

Additional observations from a re-analysis of the deposited data

Results flagged for a closer look

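For 24 named genes called in BMP gain, the response to BMP gain, against wild type A, differed from the response to BMP loss, against wild type B, by limma's test of the difference itself at an adjusted p under 0.05. The values are differences of log2 changes, BMP gain minus BMP loss. Of all genes, 0.434% were called in this difference. Among the 24, 11 were named only because every comparison, this difference included, called them. For those 11 the outcome was fixed by the selection, so the 24 do not measure how often named genes differ.

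Genes with a lower response in BMP gain included the vitelline membrane genes Vm32E (-6.59 ± 0.12 SE, adjusted p = 3.9e-13) and Vm26Ac (-2.08 ± 0.13, 2.6e-06). CG46491 (-4.08), kar (-1.71), veil (-1.44), CG31886 (-1.30) and Hexo2 (-1.02) stood at -3.86, -1.41, -1.26, -1.05 and -1.06 in BMP gain and within 0.30 of wild type B in BMP loss. CG9747 (-1.77) moved in opposite directions, with -1.09 in BMP gain and 0.68 in BMP loss. Esp (-1.52), Ir7c (-1.15) and CG4593 (-0.85) were also in this set. GstD1 (-0.77 ± 0.12, 0.0073) was higher in both genotypes, by 1.53 in BMP gain and by 2.30 in BMP loss.

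Genes with a higher response in BMP gain were led by CG7742 (2.42 ± 0.34, adjusted p = 0.0039), Faa (2.41 ± 0.33, 0.0033) and bam (2.12 ± 0.19, 0.00017). The driven gene tkv (1.78) was among them. 18w (1.72), alpha-Est7 (1.79), LanA (1.21) and CAP (1.10) were above wild type A in BMP gain, at 1.14, 0.98, 0.69 and 0.47, and below wild type B in BMP loss, at -0.58, -0.80, -0.53 and -0.63. PGRP-SC2 (1.67), CG17544 (0.91), ana2 (0.83) and Yp3 (0.67) completed the set. The differences of PGRP-SC2 and CG17544 lost their calls in 10 and 8 of 12 omissions of single arrays. CG7742 stood further above wild type A in both EGFR genotypes than in BMP gain, and LanA was not called against the EGFR pair.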

How the results depend on the processing

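Quantile normalization within each round (336, 186 and 57 probe sets) and median centring (328, 183 and 56) left the counts of the comparison with wild type A, with the EGFR pair and with the BMP loss response close to 334, 187 and 60. Using the arrays of each comparison by themselves gave 95 and 47 for the first 2, and the round 1 arrays alone 93 against the EGFR pair. Array weights gave 578 and 299, a filter on dim probe sets 506, 400 and 97, and an intensity trend with robust moderation 353 against the EGFR pair. With 1 array left out in turn the counts ranged from 210 to 256, 76 to 203 and 45 to 58. With replicate number as a block they were 253, 102 and 35, although over all probe sets the numbers did not pair the BMP gain and wild type A arrays. The block left 1 of 3 yolk and 4 of 23 replication genes called higher against the EGFR pair. Of 70 named calls against wild type A 50 held with each single array left out, 31 in the 6 arrays alone, 55 in the round 1 arrays, 70 with the trend and 63 with the block. Signs turned for 18w and Ir7c against EGFR gain alone (-0.0073 and 0.0026) and in other probe sets of CG44153 (0.66 and 0.72), Cyp9b2 (1.46), CG46491 (0.75) and Faa (-0.0357), and the cause was not tested. The comparisons with EGFR gain alone and EGFR loss alone, which called 178 and 279, were chosen after seeing the data.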

Other observations

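A few further genes lie outside the naming rule and were picked after their values were seen. mav, the TGF-beta family ligand Maverick, averaged 5.92 ± 0.30 in BMP gain and 6.56 ± 0.03 in wild type A (SD, n = 3 each), a difference of -0.64 ± 0.12 SE (adjusted p = 0.0095 by limma), and was 0.72 below the EGFR pair (-0.72, 0.0030). Tret1-1, a trehalose transporter, averaged 4.42 ± 0.20 in BMP gain and 5.43 ± 0.06 in wild type A (-1.01 ± 0.14, 0.0012), and stood at -1.11 against the EGFR pair (0.00031).

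Glutathione S-transferase genes were called in both directions in BMP gain. GstE1 averaged 7.47 in BMP gain and 8.58 in wild type A (-1.11 ± 0.13, adjusted p = 0.00029 by limma) and GstE8 5.83 and 6.65 (-0.82 ± 0.15, 0.0070), while GstE11 averaged 7.09 and 6.56 (0.53 ± 0.08, 0.0018) and GstD1 rose. In BMP loss GstE1 stood at -2.35 and GstE11 at 1.17 against wild type B, the same directions with larger sizes, and the differences between the BMP responses were 1.25 (0.0050) and -0.64 (0.019).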
